A study of Mus musculus with 6 samples.

Results

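The annexin family was followed through the differentiation of CAD cells, a catecholamine-making mouse cell line of the central nervous system, immortalized with simian virus 40. The members were 10 genes chosen by symbol, Anxa1 to Anxa9 and Anxa11, of 55536 genes counted. Gene expression was measured by mRNA sequencing in 3 libraries of undifferentiated, proliferating cells in medium with 8% fetal bovine serum and 3 libraries of cells given 100 µM dexamethasone, a synthetic glucocorticoid, for 5 days in medium with 1% serum. Steroid and serum changed together, and the labels give a 48-hour medium change and a length of culture for the dexamethasone cells alone. Each difference is of that combination, and all cells are of a single male line of C57BL/6 x DBA/2 origin. The labels call the samples of each group independent but name no separate cultures, so the p-values reflect only how these samples spread, in part perhaps for technical reasons.

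Annexins are cytosolic proteins that bind membranes rich in acidic phospholipids, such as phosphatidylserine, when calcium rises. Each has a variable amino-terminal region and a conserved core of annexin repeats, and the amino-terminal region lets several members bind EF-hand proteins, among them S100 proteins. They are known for roles in vesicle traffic, membrane repair and the link between membranes and the actin cytoskeleton, and Anxa1 is known in immune cells as a mediator of glucocorticoid action.

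Libraries held 6411105 to 8757992 counted reads. Levels are given as CPM, the read count relative to library size after scaling with TMM factors, and for comparisons between genes as TPM, which also divides by exon length and is relative to the library's sum. As background for the marker counts here, 40.3% of all 12664 tested genes were called higher and 38.6% lower, by the test given below. All 12 genes listed as CAD identity markers were measured well enough to test, 6 of them higher and 5 lower. Their summed level was 4134 to 4244 CPM in undifferentiated and 11987 to 14028 CPM in dexamethasone libraries, and Chgb, a secretory granule protein, made up the rise. Without Chgb the other 11 genes summed to 3066 to 3229 CPM before and 2746 to 2880 CPM after. That sum held larger changes in both directions. Dbh fell 13.2-fold, from a mean of 165 to 12.5 CPM, and Gata2 fell 2.23-fold, while Snap25 rose 2.52-fold and Chga 2.44-fold. The macrophage and blood markers summed to at most 1.04 CPM and the epithelial markers to at most 0.332 CPM in any library, with Ptprc, Itgam, Krt19 and Cldn4 at 0 reads throughout. Of 10 fibroblast markers 5 were tested and 4 were higher; their sum went from 348 to 358 CPM up to 1347 to 1437 CPM, most of it Fn1, while Col3a1 had no read. Of the endothelial markers Pecam1 alone was tested, and the 5 summed to 18.3 to 21.3 CPM in undifferentiated and 33.4 to 35.7 CPM in dexamethasone libraries. The part of these marker changes in the annexin values was not tested.

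In the dexamethasone cells Anxa4 rose 2.99-fold and Anxa7 rose 1.57-fold, Anxa2 fell 1.44-fold and Anxa6 fell 1.18-fold. Anxa5, Anxa9, Anxa11 and Anxa1 did not pass the test, and Anxa3 and Anxa8 had at most 2 reads in a group. Of the 10 members 8 passed the filter on low counts and were tested; by edgeR's quasi-likelihood test over 12664 genes (threshold 0.05 on the Benjamini-Hochberg adjusted p), 2 members were higher and 2 lower. Among all tested genes 78.9% were called, 40.3% higher and 38.6% lower. The 4 of 8 annexins called are therefore no larger a share than that of all genes. Their median log2 fold change was -0.08, beside 0.02 over all tested genes. In the same 4 genes the libraries of the groups did not overlap, which held for 79.9% of tested genes, 41% above and 38.9% below. With so many genes called, a direction given here is set against the rest of a library's counted reads, and nothing was measured per cell.

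The promoters of the members that moved most are shown with that of Anxa1, the member best known for glucocorticoid action. RefSeq promoter entries (GRCm38.p6, 250 bases before to 50 bases after a start) were found for 8 of the 10 members, with 11 entries in all. Capitals mark GGGCGG, known as a GC box, on either strand, and TGANTCA, an AP-1 site; no matches of the 2 motifs overlap in these sequences.
Anxa4 (chr6:86793535-86793834, minus strand): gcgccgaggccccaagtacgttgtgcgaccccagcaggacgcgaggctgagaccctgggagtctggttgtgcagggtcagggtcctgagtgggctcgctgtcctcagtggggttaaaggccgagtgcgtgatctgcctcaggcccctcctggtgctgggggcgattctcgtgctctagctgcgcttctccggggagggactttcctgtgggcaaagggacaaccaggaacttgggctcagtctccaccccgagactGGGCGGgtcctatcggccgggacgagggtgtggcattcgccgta
Anxa7 (chr14:20479892-20480191, minus strand): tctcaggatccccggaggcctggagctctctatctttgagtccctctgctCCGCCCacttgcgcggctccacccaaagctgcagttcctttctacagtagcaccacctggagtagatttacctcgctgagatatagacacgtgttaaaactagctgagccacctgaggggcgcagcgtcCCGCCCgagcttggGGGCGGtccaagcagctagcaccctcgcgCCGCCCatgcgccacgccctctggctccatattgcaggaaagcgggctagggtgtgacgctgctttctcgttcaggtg
Anxa2 (chr9:69453433-69453732, plus strand): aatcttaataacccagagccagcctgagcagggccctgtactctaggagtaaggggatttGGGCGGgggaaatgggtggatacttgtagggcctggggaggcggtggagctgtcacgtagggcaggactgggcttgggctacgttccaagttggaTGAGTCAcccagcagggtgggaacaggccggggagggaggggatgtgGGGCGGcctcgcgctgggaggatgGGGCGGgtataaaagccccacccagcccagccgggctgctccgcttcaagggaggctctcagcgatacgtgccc
Anxa1 (chr19:20390622-20390921, minus strand): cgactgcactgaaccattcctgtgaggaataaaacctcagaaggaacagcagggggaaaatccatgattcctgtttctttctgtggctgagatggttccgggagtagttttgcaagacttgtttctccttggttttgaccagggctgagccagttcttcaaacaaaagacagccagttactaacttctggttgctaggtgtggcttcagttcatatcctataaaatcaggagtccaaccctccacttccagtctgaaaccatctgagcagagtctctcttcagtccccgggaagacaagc

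Searched on both strands, the palindromic core of the glucocorticoid response element was in 0 of the 11 entries and in 0.475% of all 32851 promoters of that length. TGANTCA was in 1 of the 11, that of Anxa2, where it began 95 bases before the start, and in 7.81% of all promoters. GGGCGG was in 5 of the 11 and in 35.7% of all promoters. The Anxa7 entries overlap and share a GC box, so these 5 are not all separate. Anxa2 held 3 GC boxes, Anxa11 3 and the printed entry of Anxa7 4, while the printed entry of Anxa4 held 1, which began at base 7 after the start. The Anxa1 entry held none of the 3 motifs and 47.3% G and C, against a median of 52.7% over all promoters. These matches describe letters in a short window only.

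Anxa4 had the largest change of the family. It encodes a membrane-binding annexin known from secretory epithelia, and lies on chromosome 6 (ENSMUSG00000029994, 86736840 to 86793584 in GRCm38, minus strand). It stood at 40.3, 34.3 and 35.9 CPM in undifferentiated replicates 1, 2 and 3, and at 109, 112 and 109 CPM in dexamethasone replicates 1, 2 and 3. Every dexamethasone library lay above every undifferentiated library by a wide margin. The means were 36.8 ± 3.10 and 110.0 ± 2.04 CPM (SD, n = 3). The fitted log2 fold change was 1.58 with an SE of 0.070 (edgeR adjusted p = 1.38e-17). Over all the alternatives tried, the log2 fold change stayed between 1.53 and 1.71. Among 12664 tested genes it ranked 1187 by size of rise.

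Anxa7, also called synexin, was first studied for the fusion of chromaffin granules and binds sorcin and Pdcd6. It lies on chromosome 14 (ENSMUSG00000021814, 20455260 to 20480133, minus strand). Its level was 52.1, 57.2 and 62.0 CPM in undifferentiated replicates 1, 2 and 3 and 91.7, 83.0 and 94.9 CPM in dexamethasone replicates 1, 2 and 3. The lowest dexamethasone library was above the highest undifferentiated one. The means were 57.1 ± 4.93 and 89.8 ± 6.16 CPM (SD, n = 3). The fitted log2 fold change was 0.65 with an SE of 0.071 (edgeR adjusted p = 3.87e-09). Against a fold of 1.5 in place of no change, Anxa4 passed and Anxa7 did not (edgeR adjusted p = 0.141).

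Anxa2 binds S100a10 in a heterotetramer that links membranes to actin and holds plasminogen at the cell surface. It lies on chromosome 9 (ENSMUSG00000032231, 69453620 to 69491795, plus strand). Its level was 236, 236 and 240.4 CPM in undifferentiated replicates 1, 2 and 3 and 169.6, 163 and 162 CPM in dexamethasone replicates 1, 2 and 3. The groups were far apart beside the spread within each. The means were 237 ± 2.72 and 165 ± 4.20 CPM (SD, n = 3). The fitted log2 fold change was -0.52 with an SE of 0.050 (edgeR adjusted p = 2.83e-10). Against a fold of 1.5 it was not called (edgeR adjusted p = 1).

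Anxa6 is the member with a doubled core, and is known for tying membranes and cholesterol-rich compartments to actin. It lies on chromosome 11 (ENSMUSG00000018340, 54979108 to 55033445, minus strand). Its level was 267, 252 and 272 CPM in undifferentiated replicates 1, 2 and 3 and 224, 218 and 226 CPM in dexamethasone replicates 1, 2 and 3. All dexamethasone libraries were lower, with a smaller gap than for Anxa2. The means were 264 ± 9.94 and 223 ± 3.77 CPM (SD, n = 3). The fitted log2 fold change was -0.24 with an SE of 0.050 (edgeR adjusted p = 8.53e-05). With library totals alone it was still called at -0.12 (edgeR adjusted p = 0.0305), a scaling that moved the median of all tested genes by 0.13, and against a fold of 1.5 it was not called (edgeR adjusted p = 1).

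**Figure D1:**
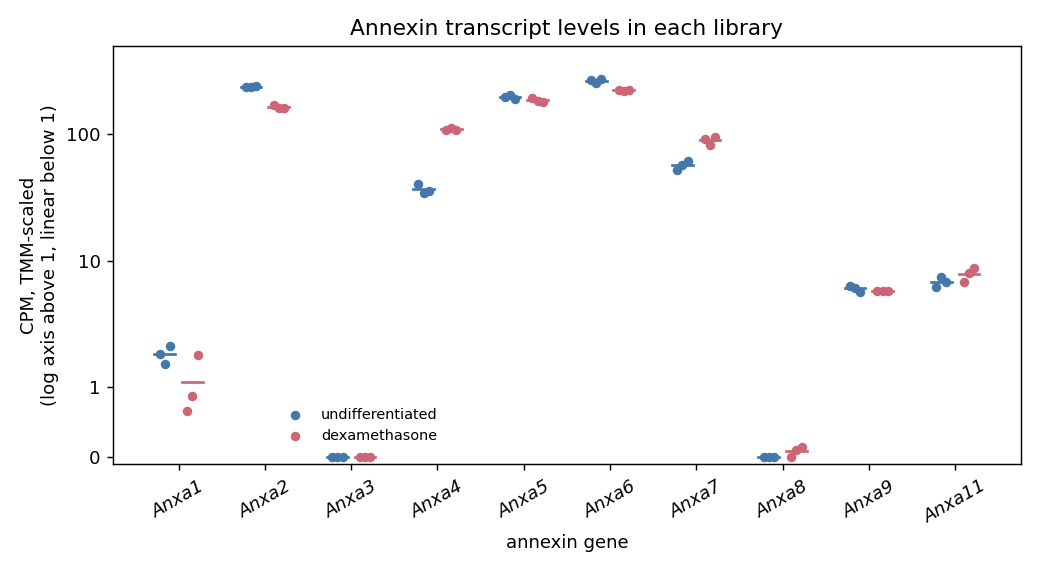
TMM-scaled CPM (log axis above 1, linear below) of the 10 annexin genes in each library, with points for libraries and short lines for group means. Anxa4 and Anxa7 lie higher and Anxa2 and Anxa6 lower in the dexamethasone libraries with no overlap, and Anxa3 is at 0 in all 6.

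Anxa5, the phosphatidylserine-binding annexin used to stain dying cells, lies on chromosome 3 (ENSMUSG00000027712, 36448923 to 36475894, minus strand). It stood at 198, 204 and 191 CPM in undifferentiated replicates 1, 2 and 3 and at 192, 185 and 180.3 CPM in dexamethasone replicates 1, 2 and 3. The groups overlapped. The log2 fold change was -0.09 (95% interval -0.20 to 0.015; edgeR adjusted p = 0.108). Its sign turned under upper quartile factors and library totals (log2 fold change 0.011 and 0.035), it was called without dexamethasone replicate 1 (-0.12, edgeR adjusted p = 0.046) and with protein-coding genes alone (-0.11, edgeR adjusted p = 0.0492), and its adjusted p ranged from 0.046 to 1 over all alternatives.

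Anxa9 and Anxa11 were both low. Anxa9 lacks the calcium-binding loops of the family; it lies on chromosome 3 (ENSMUSG00000015702, 95296096 to 95307176, minus strand) and stood at 6.36, 6.12 and 5.68 CPM in undifferentiated replicates 1, 2 and 3 and at 5.76, 5.78 and 5.81 CPM in dexamethasone replicates 1, 2 and 3. Its groups overlapped (log2 fold change -0.07, 95% interval -0.45 to 0.31, edgeR adjusted p = 0.736), and the sign turned under upper quartile factors and library totals. Its span overlaps 2 other annotated genes, Mindy1 on the opposite strand and 6330562C20Rik on the same strand, with 482 and 48 reads in undifferentiated and 892 and 56 reads in dexamethasone libraries. Reads shared by genes on the same strand were not counted, so the Anxa9 level is uncertain. Anxa11, which carries RNA granules on lysosomes, lies on chromosome 14 (ENSMUSG00000021866, 25842156 to 25886804, plus strand) and stood at 6.22, 7.39 and 6.82 CPM in undifferentiated replicates 1, 2 and 3 and at 6.75, 7.96 and 8.79 CPM in dexamethasone replicates 1, 2 and 3. Its groups overlapped as well (log2 fold change 0.19, 95% interval -0.17 to 0.55, edgeR adjusted p = 0.332). The overlapping antisense gene Anxa11os had 0 and 2 reads over the groups.

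Anxa1 lies on chromosome 19 (ENSMUSG00000024659, 20373428 to 20390944, minus strand). It had 13, 12 and 13 reads in undifferentiated replicates 1, 2 and 3 and 6, 8 and 12 reads in dexamethasone replicates 1, 2 and 3. As levels these were 1.84, 1.53 and 2.11 CPM and then 0.664, 0.872 and 1.79 CPM, so the groups overlapped through dexamethasone replicate 3. The log2 fold change was -0.78 ± 0.384 (SE; 95% interval -1.56 to 0.013, edgeR adjusted p = 0.0668). Without dexamethasone replicate 3 it was called (-1.21, edgeR adjusted p = 0.0143), as it was with limma voom (-0.85, adjusted p = 0.0479), and the adjusted p ranged from 0.0143 to 0.289 over all alternatives. The formyl peptide receptor genes through which Anxa1 acts, Fpr1, Fpr2 and Fpr3, had 0 reads in each group, and Pla2g4a, a phospholipase that Anxa1 is known to inhibit, had 0 and 5 reads. The spans of Fpr2 and Fpr3 overlap on the same strand, and reads shared by both were not counted, so their 0 counts are less certain.

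Anxa3 (ENSMUSG00000029484, chromosome 5, 96793339 to 96845966) had no read in either group. A count of 0 allows up to 3 reads over a group, which is 0.142 CPM in undifferentiated and 0.120 CPM in dexamethasone cells and covers counting error only. Anxa8 (ENSMUSG00000021950, chromosome 14, 34085981 to 34100571) had 0 reads in undifferentiated libraries and 1 read each in dexamethasone replicates 2 and 3, within that limit. The annexins outside the members, Anxa10 and Anxa13, had no read either.

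Per length, the family was ordered as Anxa5, Anxa6, Anxa2, then Anxa7 and Anxa4, then Anxa9, Anxa11 and Anxa1 in undifferentiated cells. The median levels were 335, 274 and 194 TPM for the first 3 and 29.3 and 23.3 TPM for Anxa7 and Anxa4. In dexamethasone cells Anxa4 stood above Anxa7 (medians 80.8 and 51.6 TPM), and the other tested members kept their order. Neighbours in this order had ranges over libraries that did not overlap, down to Anxa1; Anxa3 and Anxa8 could not be separated. In undifferentiated cells Anxa5 was above 96.5% and in dexamethasone cells above 97.1% of tested genes, Anxa6 above 95.4% and 95.6%, and Anxa1 above 9.35% and 2.74%. TPM sets all libraries to the same total, and on that scale the log2 ratios between groups lay 0.17 above the fitted values in the median over tested genes.

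The summed level of the 10 members was 872 ± 6.06 TPM in undifferentiated and 918 ± 4.55 TPM in dexamethasone cells (SD, n = 3), or 0.0872% and 0.0918% of all TPM. In TMM-scaled CPM the sum was 798.8 to 815.9 in undifferentiated and 775.8 to 799.3 in dexamethasone libraries. It did not rise on that scale, so the direction of the sum depended on the scale. Within the TPM sum the shares of Anxa2, Anxa5 and Anxa6 together were 92.1% and 83.7%. Anxa4 made up 2.76% ± 0.224 of the sum in undifferentiated and 8.83% ± 0.284 in dexamethasone cells (SD, n = 3). Anxa2 made up 22.1% ± 0.235 and 16.5% ± 0.178, Anxa7 3.32% ± 0.288 and 5.58% ± 0.355, and Anxa5 38.7% ± 1.35 and 38.9% ± 0.807 (SD, n = 3). Anxa6 made up 31.3% ± 1.08 and 28.3% ± 0.497 (SD, n = 3). The shares of Anxa4 and Anxa7 were higher in each dexamethasone library than in any undifferentiated one. Those of Anxa2 and Anxa6 were lower in each, while that of Anxa5 differed by less than its spread. Shares without division by length put Anxa4 at 4.56% and 14.0%.

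**Figure D2:**
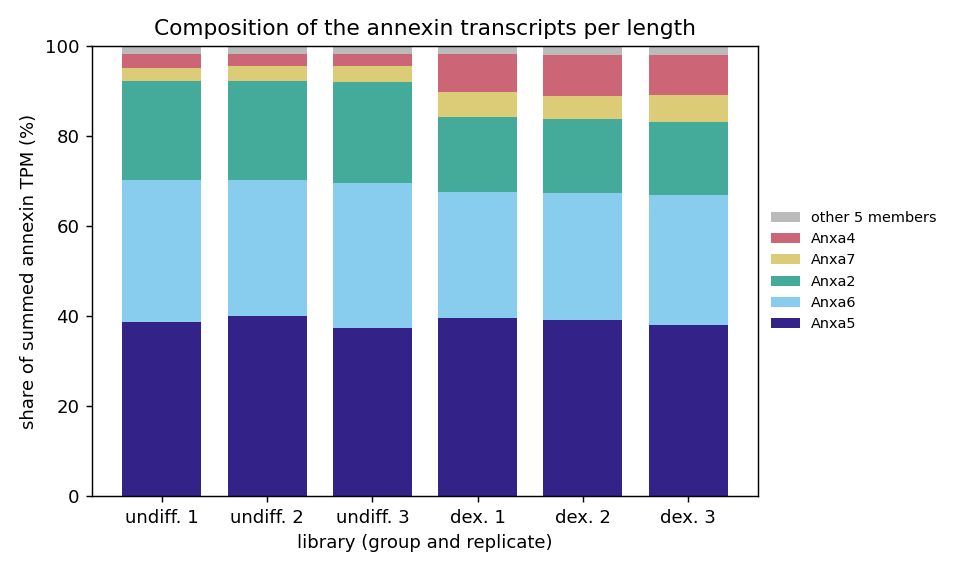
Share of the summed annexin TPM (percent, stacked to 100) held by each member in the 3 undifferentiated and 3 dexamethasone libraries. The Anxa4 band widens from 2.76% to 8.83% on average and the Anxa2 band narrows from 22.1% to 16.5%, while the Anxa5 band stays near 38.7% to 38.9%.

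The EF-hand partners of annexins were taken as a list of 10 genes. Of these 8 were tested, 4 were higher and 2 lower, with a median log2 fold change of 0.18. The called share of these 8 genes was 75%, beside 78.9% of all tested genes (40.3% higher and 38.6% lower). S100a10, the partner of Anxa2, lies on chromosome 3 (ENSMUSG00000041959). Its level was 175, 181 and 184 CPM in undifferentiated replicates 1, 2 and 3 and 106, 98.8 and 102 CPM in dexamethasone replicates 1, 2 and 3. It fell with no overlap of the groups (log2 fold change -0.81 ± 0.054 SE, edgeR adjusted p = 1.47e-13). The ratio of S100a10 to Anxa2 per length was 2.33 ± 0.0472 in undifferentiated and 1.91 ± 0.0357 in dexamethasone cells (SD, n = 3; exact two-sided permutation p = 0.1, the smallest 3 against 3 can give).

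S100a11, the partner of Anxa1, was near the limit of detection, with means of 1.85 ± 0.063 and 0.892 ± 0.550 CPM (SD, n = 3). It was called lower (log2 fold change -0.99, edgeR adjusted p = 0.0237), but not with DESeq2 (adjusted p = 0.0822), nor without undifferentiated replicate 1 (edgeR adjusted p = 0.0548) or 2 (0.0634) or dexamethasone replicate 1 (0.128) or 3 (0.0853). S100a1 rose 5.03-fold, from 4.90 ± 0.812 to 24.5 ± 3.06 CPM (SD, n = 3), and S100a13 rose 2.28-fold. Sri, sorcin, which binds Anxa7, rose 1.42-fold (log2 fold change 0.51 ± 0.086 SE, edgeR adjusted p = 5.52e-06). S100a6, the most abundant partner, known to bind several annexins, rose 1.18-fold from 604 ± 22.6 to 712 ± 76.4 CPM (SD, n = 3), with overlapping groups. Pdcd6 and Pef1, a pair of penta-EF-hand proteins, were not called (log2 fold changes -0.05 and 0.11), and Pef1 was called with upper quartile factors and library totals.

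**Figure D3:**
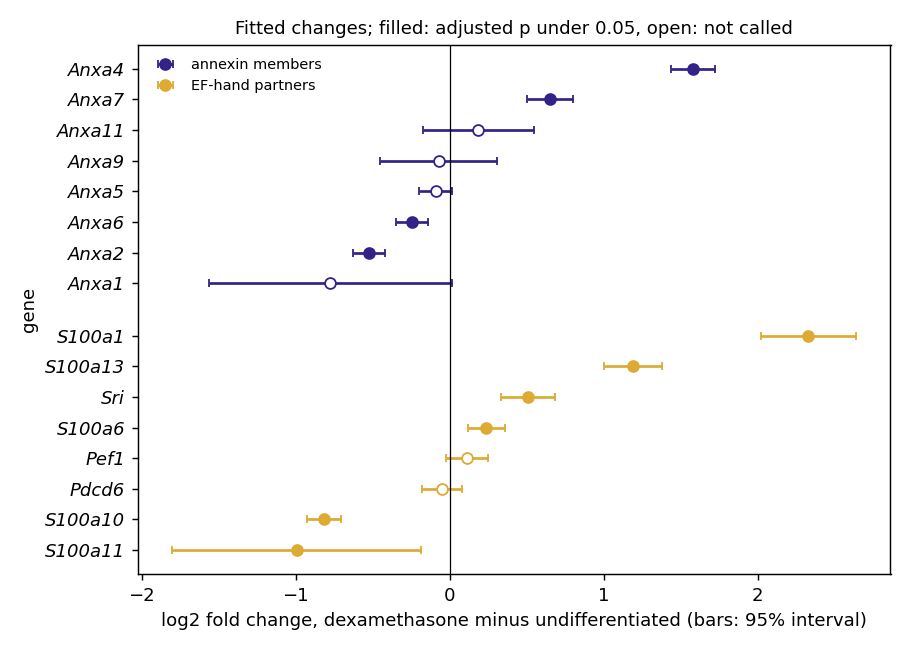
Fitted log2 fold change (dexamethasone minus undifferentiated) with its 95% interval for the 8 tested annexins and 8 tested EF-hand partners; filled points were called. Anxa4 lies furthest to the right of the annexins at 1.58, Anxa2 and its partner S100a10 both lie to the left at -0.52 and -0.81, and the interval of Anxa1 reaches from -1.56 to 0.013.

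Of 18 listed genes of membrane repair and other calcium-dependent lipid binding, 9 were tested, 7 were higher, 0 lower and 2 not called by edgeR, with a median log2 fold change of 0.69. The called share of these 9 genes was 77.8%, beside 78.9% of all tested genes (40.3% higher and 38.6% lower). No tested gene of this list was lower at an unadjusted p under 0.05 in edgeR, and 0 were called lower with DESeq2 or limma voom. Dysf, dysferlin, which acts with annexins in membrane repair, rose 2.79-fold from 16.3 ± 0.972 to 45.4 ± 1.57 CPM (SD, n = 3). Its relative Myof rose 1.61-fold, Capn1 of the calpain proteases 2.75-fold, and the copine genes Cpne5 and Cpne2 4.46-fold and 1.82-fold. Ahnak, a scaffold that binds the complex of Anxa2 and S100a10, stood at 277 ± 1.46 CPM before and 272 ± 4.05 CPM after (SD, n = 3) and did not pass (log2 fold change -0.03, edgeR adjusted p = 0.587). Its dexamethasone libraries, at 267 to 274 CPM, all lay below the undifferentiated ones, at 276 to 279 CPM, and it was the 1 tested gene of this list with its groups apart in that direction. Its sign turned under upper quartile factors and library totals, as did that of Capn2.

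The surface plasmin system, in which Anxa2 with S100a10 holds plasminogen, had 4 tested genes of 7. Of these 2 were higher and 2 lower, with a median log2 fold change of -0.08. Among all tested genes 78.9% were called, 40.3% higher and 38.6% lower, so 4 genes say little beside that share. Plat, tissue plasminogen activator, rose 2.66-fold from 24.3 ± 2.28 to 64.9 ± 2.80 CPM (SD, n = 3). Plaur, the urokinase receptor, fell 1.29-fold from 39.5 ± 1.59 to 30.6 ± 3.45 CPM (SD, n = 3). Plgrkt, a plasminogen receptor, was called at 1.16-fold (edgeR adjusted p = 0.0451), and lost the call with DESeq2 (adjusted p = 0.147), with the replicate block (0.069) and when any library but undifferentiated replicate 1 or dexamethasone replicate 1 was left out (0.077 to 0.115).

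Of 14 genes for exposing or reading phosphatidylserine, the lipid that Anxa5 binds, 10 were tested, 7 higher and 2 lower, with a median log2 fold change of 0.61. Over all tested genes 78.9% were called, 40.3% higher and 38.6% lower. Axl, a receptor of phosphatidylserine bridging proteins, rose 2.73-fold from 12.2 ± 0.095 to 33.2 ± 2.05 CPM (SD, n = 3), and its relative Tyro3 rose 1.46-fold. Mfge8, a secreted bridge, rose 1.62-fold and the scramblase-like gene Plscr3 1.71-fold. Plscr1, of the same family, fell 1.49-fold from 16.4 ± 2.08 to 11.1 ± 1.06 CPM (SD, n = 3). Ano6, a calcium-activated scramblase, was not called (log2 fold change -0.04, edgeR adjusted p = 0.579).

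Directions within the family were read under each library scaling. RLE factors left the log2 fold changes close to those with TMM, while upper quartile factors and library totals moved the median of all tested genes by 0.10 and 0.13. Under all 4 scalings Anxa4 and Anxa7 were called higher and Anxa2 and Anxa6 lower, while Anxa5 and Anxa9 changed sign and were not called under any of the 4. In TPM, without a test, the log2 ratio was 1.75 for Anxa4, 0.83 for Anxa7, -0.35 for Anxa2 and -0.07 for Anxa6.

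**Figure D4:**
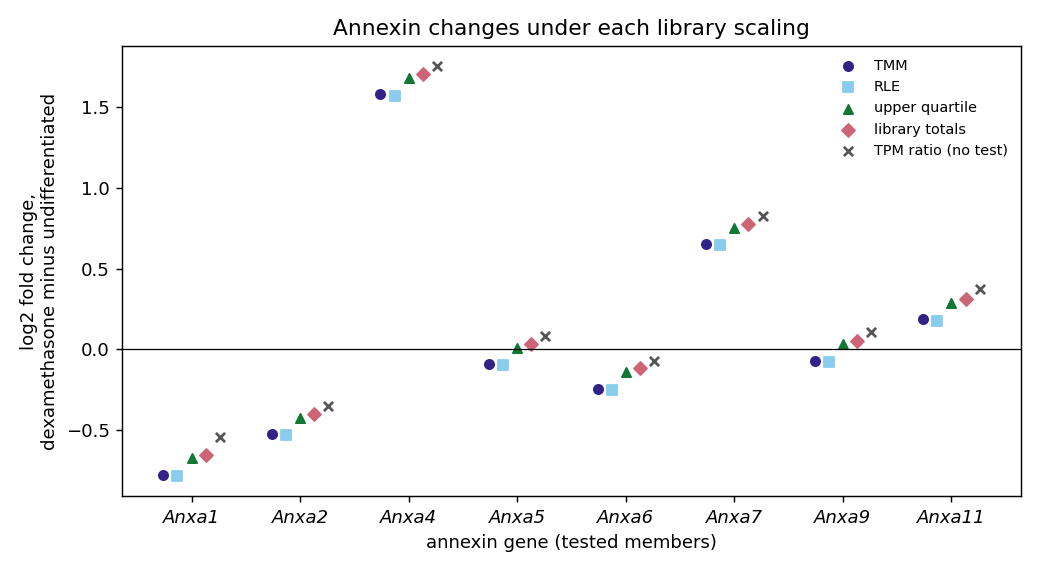
Log2 fold change of the 8 tested annexins under TMM, RLE, upper quartile and library total scaling, with the log2 ratio of mean TPM as crosses. Anxa4, Anxa7 and Anxa2 stay on 1 side of 0 by a margin, Anxa6 approaches 0 from -0.24 to -0.07, and Anxa5 and Anxa9 lie on both sides of it.

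The pattern of Anxa5, the member with the highest mean TPM, was set beside all tested genes over the 6 libraries by Pearson's r of log2 CPM. The 3 nearest were Rgs5 (r = 0.989), Xkr7 (0.988) and Rpl38-ps2 (0.988). The 6 libraries fall into the 2 groups, so these values describe the ranking only.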

How the data were processed

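The authors deposited 1 file of raw read counts per library. Per the file headers, these counts come from featureCounts 1.6.4 run on Ensembl release 96 (GRCm38) exons, summed by gene, with strand setting 1. Options for multi-mapped or multiply assigned reads were not set, so reads that fit near-identical copies equally well are missing. Per the submitters' processing notes the tools were HISAT2 2.2.0, Subread 1.6.4, Trim Galore 0.6.4, FastQC 0.11.9 and DESeq2, on build GRCm38.p6. Per the labels' protocols, 500 ng of total RNA, 12 amplification cycles and 75-base reads were used. All 55536 identifiers had a name and equal coordinates in GENCODE M21. The exon length in bases is that of the deposited files.

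Genes were kept by filterByExpr (minimum count 10, minimum total 15; 12664 genes, 99.8% of reads) and tested in R 4.3.3 by edgeR 4.0.16 (glmQLFit, glmQLFTest) on TMM-scaled counts, with group as the single term. The SE is the log2 fold change divided by the square root of F. TPM was computed from counts and exon length. At these depths 3 reads in a library are 0.327 to 0.487 CPM. Replicate libraries varied beyond sampling noise (chi-square over its degrees of freedom was 1.65 to 3.19). Each was counted as a sample, though such variation can also be technical and does not show separate cultures. Counts were simulated for this comparison over 12664 genes with 200 changed. Of genes changed 1.25-fold 62.0% were recovered, of those changed 1.5-fold 86.0%, 2-fold 96.0% and 4-fold 98.0%. The simulation gave all genes the same dispersion and changed few of them, while 78.9% of tested genes were called in the data. These rates therefore do not give the recovery in the data.

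The members and lists were chosen with earlier results of these data known. Named genes are the 10 members and, in other lists, up to 4 called genes a direction with a mean of at least 1 CPM, by adjusted p; names outside this rule (Cpne2, Ahnak, Capn2, Pdcd6, Pef1, Pla2g4a, Ano6) were chosen after their values were seen. As alternatives, upper quartile and RLE factors or library totals replaced TMM; others were no filter, 1 CPM in 3 libraries, DESeq2 1.42.0, limma voom (3.58.1), each library left out, a replicate block, a test against a fold of 1.5 and protein-coding genes alone. Protein sequences were not used here. Some genes of the lists enter their counts but are not reported here by name.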

Additional observations from a re-analysis of the deposited data

How the results depend on the processing

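Anxa4, Anxa7, Anxa2 and Anxa6 kept their direction under all alternatives and lost a call only against a fold of 1.5, where Anxa4 alone remained. Of 128 values of single annexins under alternatives 117 kept direction and side of the threshold, 4 gained a call, 3 lost one and 4 changed sign. With upper quartile factors and library totals the log2 fold change changed sign for Anxa5 (0.011 and 0.035), Anxa9 (0.0318 and 0.055), Pdcd6 (0.052 and 0.076), Ahnak (0.073 and 0.097), Capn2 (0.064 and 0.088) and Ano6 (0.066 and 0.089), in step with the median of all genes; Ano6 also changed sign without undifferentiated replicate 3 (0.012) or dexamethasone replicate 3 (0.011), and over all left-out libraries lay between -0.0676 and 0.0116.

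Against a fold of 1.5, which asks for more than any change, 2853 genes were called higher and 2316 lower, with 1 and 0 annexins, 2 and 1 EF-hand partners, 4 membrane repair genes higher, 1 and 1 plasmin genes and 3 and 1 phosphatidylserine genes. DESeq2 called 1 EF-hand partner lower. Plasmin genes called higher numbered 1 with RLE factors, no filter, DESeq2, limma voom, the replicate block and protein-coding genes alone. In each of these settings Plgrkt lost its call and Plat kept it. Leaving out each library gave 2 to 3 annexins lower, 2 higher, 1 to 2 EF-hand partners lower and 1 to 2 plasmin genes higher. Without division by length the summed share of Anxa2, Anxa5 and Anxa6 was 86.55% in undifferentiated and 72.75% in dexamethasone cells, and that of Anxa4 was 4.56% and 14.0%.

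Same-numbered libraries of the 2 groups did not deviate together (r = -0.107, 0.036 and -0.077 for replicates 1, 2 and 3), so no pairing by number was seen. Such values cannot tell whether same-numbered libraries were prepared together. With the replicate number as a block 5017 genes were higher and 4803 lower, Plgrkt was no longer called (log2 fold change 0.22), and no annexin call changed. Depth limits Anxa1, Anxa3, Anxa8 and S100a11, each under 40 reads in a group.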
